A study of Mus musculus with 10 samples.

Results

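Oxidative phosphorylation subunits are the nuclear-encoded proteins of the mitochondrial respiratory chain and of ATP synthase. The genes were chosen by symbol: each gene whose platform annotation starts with Nduf, Uqcr, Atp5, Cox4, Cox5, Cox6, Cox7 or Cox8, together with Sdha, Sdhb, Sdhc, Sdhd, Cyc1 and Cycs. This gave 92 of the 18193 genes named on the arrays, each read from 1 probe set, its brightest by the mean of the 10 arrays. Of the 92, 84 are subunits and 8 are complex I assembly factors that share the Nduf prefix. Complex I contributed 34 subunits and the 8 assembly factors, complex II 4 genes, complex III 9, complex IV 19, ATP synthase (complex V) 17, and cytochrome c 1. After genes at or under the 25th percentile of the mean level had been left out, 89 of the 92 were tested among 13644 genes. The 3 left out were Ndufb4, Cox4i2 and Cox7b2, with mean intensities of 7.11, 13.4 and 5.41, which is at or near background.

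The arrays measured total RNA of F2 mice from a C57BL/6 by BALB cross. There were 8 cystic fibrosis knockouts, made by loss of the chloride channel gene Cftr, and 2 controls. Codes in the sample titles placed 5 knockouts in a class H and 3 in a class L, while both controls carried a D in place of H or L and a W in place of the code of the knockouts. The labels spell out none of these letters; variable weight is named in the title of the series. Neither the Cftr allele, nor the age of the mice, nor the genotype of the controls beyond that code was given. Every title also carried the letter M (6 mice) or F (4 mice) and a number, which falls in an upper range (5 knockouts) or a lower range (3 knockouts and both controls). The design text names other numbers of animals than the arrays analysed here. Nothing beyond the separate numbers says that the samples are separate animals, so p-values measure the spread between these samples.

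Electrons from NADH enter the chain at complex I and those from succinate at complex II, pass through ubiquinone to complex III, and travel on cytochrome c to complex IV, which reduces oxygen to water. Complexes I, III and IV pump protons across the inner mitochondrial membrane, and ATP synthase uses the returning protons to make ATP. Most subunits are made from nuclear genes and imported, and a few core subunits come from mitochondrial DNA. None of the 13 protein-coding genes of mitochondrial DNA had an annotated probe set here, so the values below cover the nuclear part. Enterocytes and the cells of the airways both depend on these complexes, and several complex IV subunits have a widely expressed form and a second form known from muscle, testis or lung.

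Cftr itself had intensities of 19.7 to 35.4 in the 8 knockouts, against 131 and 137 in the controls (log2 difference -1.91 ± 0.16 SE, limma adjusted p = 0.00528), although the call was lost without control replicate 1 (adjusted p = 0.0894). Per the labels the RNA came from whole right lung. Transcripts of small intestine epithelium were nonetheless high on every array: Fabp2, the intestinal fatty acid binding protein, averaged 4679 and Vil1, the microvillus protein villin, 2869 over the 10 arrays. The 13 small intestine markers summed to 28586 to 34022 in knockouts, against 40647 and 42053 in controls. Of the 13, 4 (Fabp2, Vil1, Cdx2 and Anpep) fell at a limma adjusted p under 0.05, as did 2.79% of all genes tested. Lgals4, Cdx1 and Apoa4 had higher estimates (0.02, 0.07 and 0.65), and none of them was called. Alpi, Slc5a1, Fabp6, Krt20, Lct and Cdh17 had lower ones, from -0.96 (Alpi) to -0.02 (Cdh17), also without a call. Lung markers were present at a wide range, with the surfactant gene Sftpc at 1099 to 4169 in knockouts and 1107 and 1190 in controls, and the club cell gene Scgb1a1 at 2011 to 5610 in knockouts and 2667 and 2684 in controls. The 2 arrays highest in both were knockout H replicates 2 and 5. Other markers of the surfactant-making type 2 cells went both ways, and none was called. Sftpb, Sftpa1, Sftpd and Etv5 had higher estimates in knockouts, while Abca3 (-0.26) and Slc34a2 (-1.17, limma adjusted p = 0.0507) had lower ones. Slc34a2 did not follow Sftpc over the arrays. It read 623 and 704 on knockout H replicates 2 and 5, and 1310 and 1162 in controls. Whether Slc34a2 reads lung cells here was not tested. The 4 ciliated cell markers averaged only 7.59 to 17.1, and Foxj1 alone of them passed the filter. Smooth muscle markers summed to 5022 to 9342 in knockouts and to 4814 and 9943 in controls. No array stood apart by its median intensity (18.4 to 18.9), and no pair of arrays held identical values. In RNA from mixed tissue, fewer cells of a type and less RNA per cell cannot be told apart, and the part of these markers in the differences below was not tested.

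In knockouts set against controls, none of the 89 genes passed the threshold, a limma p under 0.05 after Benjamini-Hochberg adjustment over all 13644 genes, which 4.31% of all genes passed. None of the 89 was called lower, against 2.79% of all genes tested, and none was called higher, against 1.52%. At an unadjusted p under 0.05 there were 5 lower (5.62%, against 10.8% of all genes) and 5 higher (5.62%, against 8.66%). The estimates were lower in 44 (49.4%, against 51.3% of all genes) and higher in 45 (50.6%, against 48.7%), with a median log2 difference of 0.001, beside -0.0047 over all genes. They ran from -0.59 (Cox6b2) to 0.29 (Ndufaf4), and the median size without regard to sign was 0.0737, beside 0.116 over all genes. Since the number range was a term of the fit and both controls lie in the lower range, these differences rest on the 3 knockouts and 2 controls of that range.

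A p that misses the threshold does not show equal levels, so the 95% intervals bound the differences. The interval stayed within 1.25-fold either way for 56 of 89 genes (62.9%), against 39.5% of all genes tested, and within 1.5-fold for 85 of 89 (95.5%, against 79.8%). The 4 whose interval reached 1.5-fold were Ndufaf4, Cox6b2, Cox7a1 and Ndufa4, and 88 intervals lay within 2-fold (98.9%, against 94.3%), the exception being Ndufa4. The estimate itself exceeded 1.25-fold for 4 genes (4.49%, against 15.2%), which were Cox6b2, Cox7a1, Ndufa4 and Ndufb7. Most of these genes were bright: 69 of the 89 had a mean above 9 on the log2 scale, a bound chosen after the data were seen. None of the 69 was called, against 67 called lower and 31 higher (9.35%) among the 1048 other genes above that bound, and 66.7% of the 69 had an interval within 1.25-fold, against 23.8% of the others. The median standard error there was 0.0835 for the 69 and 0.1109 for the other genes, both on the log2 scale.

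**Figure D1:**
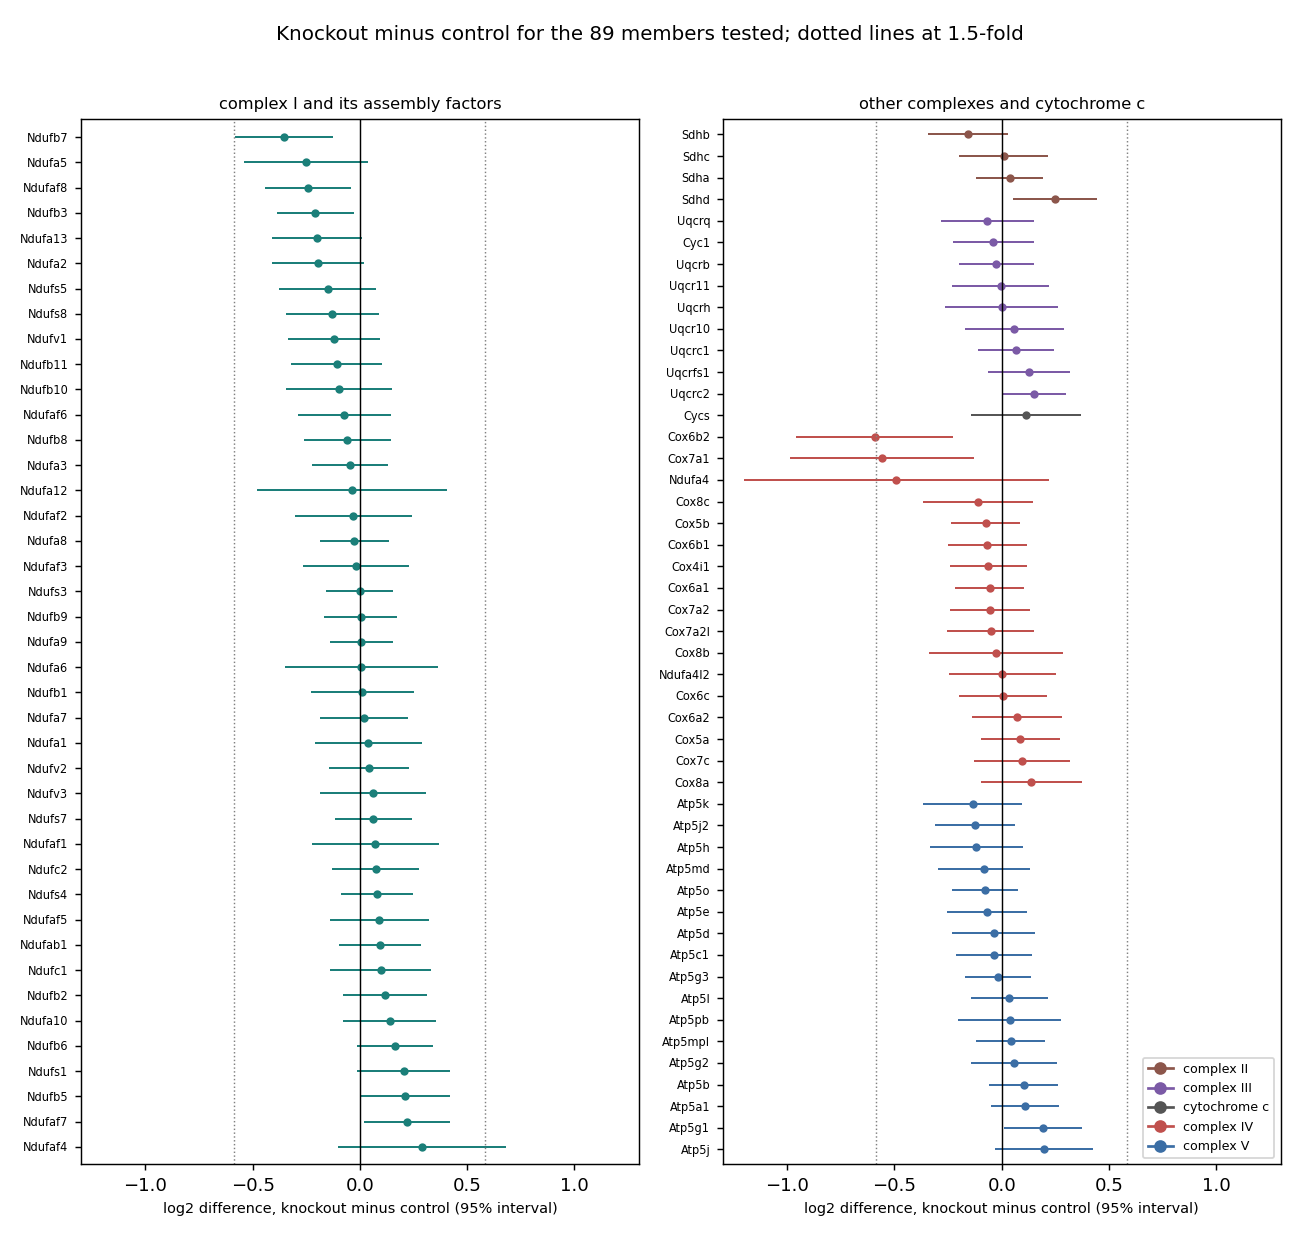
Log2 difference between knockout and control mice (horizontal axis) with its 95% interval for each of the 89 genes tested, complex I and its assembly factors on the left, the other complexes and cytochrome c on the right, dotted lines at 1.5-fold. Most points lie close to 0, and the intervals of Cox6b2, Cox7a1, Ndufa4 and Ndufaf4 cross a dotted line.

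In 6 of the 89 genes all 8 knockouts lay below both controls (6.74%, against 11.7% of all genes tested), and in 5 all 8 lay above both (5.62%, against 10% of all genes). The 6 were Cox6b2, Cox7a1, Ndufa4, Ndufb7, Ndufaf8 and Atp5j2, and the 5 were Ndufaf7, Ndufs1, Uqcrc2, Atp5g1 and Atp5j. Both shares lie under those of all genes tested, and none of the 11 passed the threshold.

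The lowest p-value and the widest spread lay in complex IV, cytochrome c oxidase. Cox6b2, a form of subunit VIb known from testis, had intensities of 34.8, 31.3, 28.6, 35.6 and 31.9 in knockout H mice and 34.6, 47.1 and 48.9 in knockout L mice, against 56.1 and 73.3 in controls. Each knockout lay below both controls, at levels not far above the array medians. The means were 36.6 ± 7.4 in knockouts (SD, n = 8) and 64.7 ± 12.2 in controls (SD, n = 2). The log2 difference was -0.59 ± 0.16 (SE), or 1.51-fold lower on the log2(intensity + 16) scale, with a limma adjusted p of 0.0759. Over 23 alternatives the adjusted p ran from 0.0197 to 0.436. The size rested on the controls, with -0.94 without control replicate 1 and -0.30 without control replicate 2.

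Cox7a1, the form of subunit VIIa known from heart and skeletal muscle, had intensities of 221, 137, 207, 180 and 235 in knockout H mice and 188, 214 and 229 in knockout L mice, against 324 and 318 in controls. The highest knockout was thus well below the lower control, and the knockouts spread over a wider range than the pair of controls. The log2 difference was -0.56 ± 0.19 (1.47-fold lower, limma adjusted p = 0.139). The call depended on 1 array and on the range term: without knockout H replicate 2, the lowest value, the adjusted p was 0.0335, in the lower number range alone it was 0.0350, and over 23 alternatives it ran from 0.0238 to 0.458. Heart muscle markers summed to 250 to 480 in knockouts and to 272 and 562 in controls, and skeletal muscle markers to 149 to 244 in knockouts and to 183 and 226 in controls, so that both sums overlapped between the groups. Of the 6 heart markers tested, Myh6, Tnnt2, Tnni3 and Myl4 averaged 20.3 to 29.5 over the arrays, while Actc1 averaged 113 and Myl7 165. Myh6, the heart myosin, had 10.7 to 39.6 in knockouts and 16.7 and 78.9 in controls, with a log2 difference of -0.30. Myl7, an atrial myosin light chain, had 124 to 305 in knockouts and 56.9 and 129 in controls, with a log2 difference of 0.92 (limma adjusted p = 0.226). Tnnt2, Tnni3, Myl4 and Actc1 had log2 differences of -0.51, -0.17, -0.11 and 0.12. The part of muscle cells in the difference of Cox7a1 was not tested. Ckm, the muscle creatine kinase, had 34.8 to 70.7 in knockouts and 42.3 and 84.3 in controls. Of the 4 skeletal muscle markers tested, Ckm and Mylpf had log2 differences of -0.15 and -0.05. Acta1 and Tnni2 had 0.10 and 0.03, and none was called. Ucp1, the uncoupling protein of brown fat, did not pass the filter, with 11.4 to 14.4 in knockouts and 12.5 and 13.0 in controls.

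Ndufa4, first assigned to complex I and now counted with complex IV, varied most over the arrays. Its intensities were 1304, 1498, 649, 1158 and 1234 in knockout H mice and 775, 1011 and 1182 in knockout L mice, against 1835 and 1519 in controls. All 8 knockouts lay below both controls, the highest of them just under the lower control, and the highest knockout exceeded the lowest by a wide margin. The log2 difference was -0.49 ± 0.31, with a 95% interval from -1.20 to 0.22 (limma adjusted p = 0.446). In the lower number range alone, where the 3 knockouts lie close together, the adjusted p was 0.0326, and over 23 alternatives it ran up to 0.813. Ndufa4 lies on chromosome 6, as Cftr does, with 21 protein-coding genes between them in the RefSeq order, and Ndufa5, an accessory subunit of complex I, lies on the other side with 18 between. Ndufa5 averaged 591 ± 74.5 in knockouts and 641 ± 73.8 in controls, with a log2 difference of -0.25 and an adjusted p of 0.318. In an F2 cross, strain alleles linked to the Cftr locus travel with the mutation and cannot be told apart from it. The other chromosome 6 genes, Ndufb2, Cycs and Ndufa9, were separated from Cftr by 125, 256 and 838 protein-coding genes and had log2 differences of 0.12, 0.11 and 0.01.

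**Figure D2:**
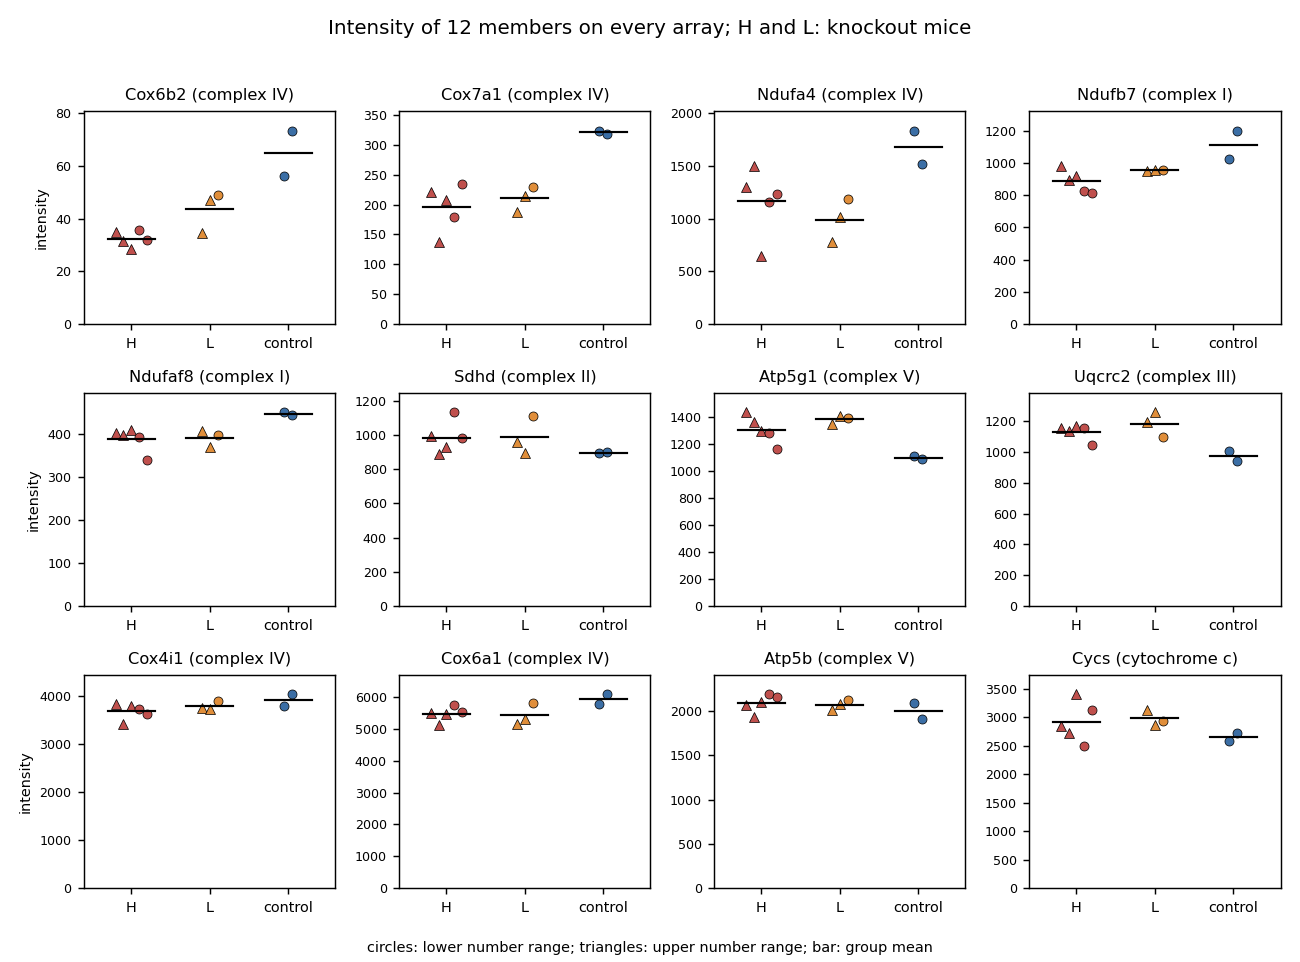
Intensity (vertical axes, from 0) of 12 genes on each array, with knockout H, knockout L and control mice from left to right, circles for the lower and triangles for the upper number range, and bars at the group means. Cox6b2, Cox7a1, Ndufa4, Ndufb7 and Ndufaf8 have all knockouts below both controls, Atp5g1 and Uqcrc2 have all above, and the groups lie close together for Cox4i1 and overlap for Atp5b.

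The other tissue-restricted forms of complex IV subunits were dim and close in both groups. Cox6a2, a form from heart and skeletal muscle, averaged 34.6 ± 3.7 in knockouts and 35.1 ± 4.2 in controls (log2 difference 0.07). Cox8b, also known from muscle, averaged 17.3 ± 4.7 in knockouts and 21.2 ± 1.0 in controls (log2 difference -0.02). Cox8c, known from testis, averaged 45.7 ± 3.9 in knockouts and 51.8 ± 9.8 in controls (log2 difference -0.11). Ndufa4l2, a relative of Ndufa4 that is induced by hypoxia, averaged 27.0 ± 3.5 in knockouts and 28.4 ± 1.4 in controls (log2 difference 0.003). None of the 6 forms tested passed the threshold, and 4 of 6 estimates were lower.

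Of the widely expressed partners tested, Ndufa4 had the wide interval given above, and the others lay close together in knockouts and controls. Cox4i1, the regulatory subunit that binds ATP, had 3824, 3405, 3787, 3720 and 3630 in knockout H mice and 3745, 3717 and 3897 in knockout L mice, against 3795 and 4029 in controls, so that the groups overlapped. Its log2 difference was -0.06, with a 95% interval from -0.24 to 0.11. Cox6a1, Cox6b1 and Cox7a2, general forms of subunits VIa, VIb and VIIa, had differences of -0.06, -0.07 and -0.06, and Cox8a 0.14. For Cox7a2l, which joins complexes III and IV in supercomplexes, it was -0.05. Cox5a and Cox5b, which sit on the matrix side, had 0.09 and -0.07, Cox6c 0.01, and Cox7c, read from a dim probe set with means of 39.2 in knockouts and 36.3 in controls, 0.10. Of 17 complex IV genes 11 had a lower and 6 a higher estimate, with a median of -0.06. None was called.

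Averaged over the 17 genes, the deviation of each array from the genes' own means was higher in controls. It was -0.0782 to 0.081 in knockouts, against 0.1065 and 0.1254 in controls, on the log2 scale. The 6 tissue-restricted forms gave -0.1402 to 0.1023 in knockouts and 0.2053 and 0.2302 in controls, again without overlap. Among these 6, Cox6b2 and Cox7a1 had by far the largest log2 differences (-0.59 and -0.56). Cox6a2, Cox8b, Cox8c and Ndufa4l2 had 0.07, -0.02, -0.11 and 0.003, so the separation is not a trait of all 6. None of the averages in this paragraph is adjusted for number range. For the 11 other complex IV genes the ranges overlapped, with -0.0607 to 0.0693 in knockouts and 0.0525 and 0.0683 in controls. Ndufa4 is among these 11 and had the largest log2 difference of them (-0.49). Of the 17 estimates 6 were higher in knockouts, so the separation over the 17 is not a trait of all of them. The highest knockout in all 3 averages was knockout L replicate 3, an animal of the controls' own number range. Over all 89 genes the averages overlapped widely, with -0.0546 to 0.0707 in knockouts and 0.0163 and -0.0044 in controls.

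**Figure D3:**
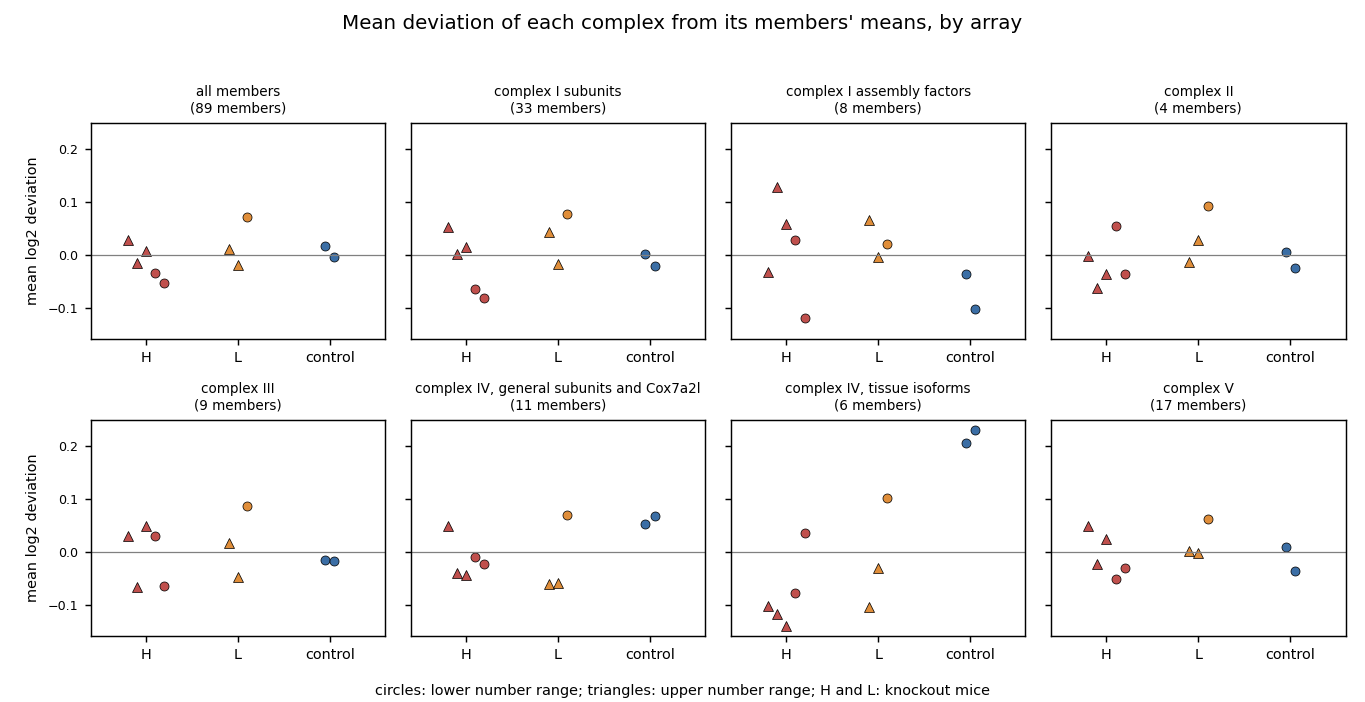
Mean log2 deviation of each complex from its genes' means over the arrays (vertical axes), by array, with knockout H, knockout L and control mice from left to right, circles for the lower and triangles for the upper number range. Complex IV is drawn as its tissue forms and its other genes, and complex I as subunits and assembly factors. The controls lie above the knockouts for the complex IV tissue forms (0.2053 and 0.2302). They lie within the range of the knockouts for the other complex IV genes and for complexes I, II, III and V.

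Complex I, the NADH dehydrogenase, is built of a core that carries the redox groups and a shell of accessory subunits. Among 33 subunits tested, 15 estimates were lower and 18 higher, with a median log2 difference of 0.01. The 6 core subunits tested were Ndufs1, Ndufs3, Ndufs7, Ndufs8, Ndufv1 and Ndufv2, and 3 of them had a lower and 3 a higher estimate. Ndufs1, the largest core subunit, had 491, 489, 566, 487 and 480 in knockout H mice and 527, 498 and 551 in knockout L mice, against 421 and 454 in controls. All knockouts lay above both controls, with a log2 difference of 0.20 ± 0.09 (limma adjusted p = 0.276). Ndufv1, which binds NADH and FMN, had a log2 difference of -0.12 and its partner Ndufv2 0.04. Ndufs7 and Ndufs8, which carry the last iron-sulfur clusters of the chain, had 0.06 and -0.13. Their next brightest probe sets had the opposite signs, -0.25 for Ndufs7 and 0.07 for Ndufs8. Ndufs3, another core subunit, had the smallest spread of all 89 genes, with 875 to 959 in knockouts and 918 and 926 in controls (log2 difference -0.001, 95% interval -0.15 to 0.15).

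The accessory subunits held the gene with the second smallest p. Ndufb7, a subunit on the intermembrane side, had 984, 897, 919, 828 and 815 in knockout H mice and 948, 957 and 959 in knockout L mice, against 1026 and 1201 in controls. Every knockout lay below both controls, the closest by a small margin. The means were 913 ± 62.8 in knockouts and 1114 ± 124 in controls, and the log2 difference was -0.35 ± 0.10 (1.28-fold lower, limma adjusted p = 0.0823). Without control replicate 2 it was -0.22 (adjusted p = 0.452), and over 23 alternatives the adjusted p did not go below 0.0576. Its second probe set also had all 8 knockouts below both controls, with a log2 difference of -0.25. Ndufb3, a small membrane-arm subunit, had a log2 difference of -0.21 ± 0.08 (adjusted p = 0.175), although its ranges overlapped: 419 to 545 in knockouts and 517 and 536.8 in controls.

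Ndufb5, also of the membrane arm, had a difference of the opposite sign. It averaged 1117 ± 75.4 in knockouts and 1011 ± 115 in controls (a log2 difference of 0.21 ± 0.09, limma adjusted p = 0.244), but its second probe set had 0.02. The accessory subunits Ndufa1, Ndufa3 and Ndufb9 had differences of 0.04, -0.05 and 0.004, and Ndufb1, a dim gene here, 0.01. Ndufa12, a subunit at the matrix arm, had 1082 to 1598 in knockouts and 1390 and 1402 in controls, the fifth widest spread of the 89, with a log2 difference of -0.04. Of 27 accessory subunits tested, 12 estimates were lower and 15 higher.

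The 8 assembly factors help to build complex I without staying in it, and 4 had lower and 4 higher estimates. Ndufaf8 had 403, 398, 409, 394 and 340 in knockout H mice and 407, 369 and 397 in knockout L mice, against 450 and 443 in controls. All 8 knockouts were below both controls, and 7 of them lay within a narrow band. The log2 difference was -0.24 ± 0.09 (limma adjusted p = 0.158), while its dimmer second probe set had -0.02. Ndufaf7, a methyltransferase that modifies a core subunit, had 55.3 to 67.0 in knockouts with a median of 63.2, against 45.5 and 51.4 in controls, and a log2 difference of 0.22 ± 0.09 (adjusted p = 0.200). Ndufaf4 had the largest positive estimate, 0.29, but with 133 to 204 in knockouts and 102 and 144 in controls its 95% interval ran from -0.10 to 0.68. Its dimmer second probe set had 55.0 to 78.3 in knockouts and 32.9 and 47.6 in controls, with all 8 knockouts above both controls and a log2 difference of 0.62 ± 0.14 (limma adjusted p = 0.0758 over all probe sets). Ndufaf1, Ndufaf2, Ndufaf3, Ndufaf5 and Ndufaf6 had differences of 0.07, -0.03, -0.02, 0.09 and -0.07.

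Complex II, succinate dehydrogenase, links the respiratory chain to the tricarboxylic acid cycle. Sdhd, one of its membrane anchors, had 992, 888, 929, 1132 and 984 in knockout H mice and 962, 894 and 1112 in knockout L mice, against 894 and 901 in controls. The groups overlapped, with 6 knockouts above both controls and 1 below both. The adjusted estimate, which weighs the lower number range, was 0.25 ± 0.08 on the log2 scale (limma adjusted p = 0.142), and its second probe set had 0.18. Sdha, the flavoprotein, and Sdhb, the iron-sulfur subunit, form the catalytic part. Their differences were 0.04 (95% interval -0.11 to 0.19) and -0.16 (-0.34 to 0.03), and that of the other anchor, Sdhc, was 0.01.

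Complex III, the cytochrome bc1 complex, had 4 lower and 5 higher estimates among 9 genes. Uqcrc2, a core protein, had 1159, 1136, 1171, 1157 and 1044 in knockout H mice and 1197, 1257 and 1098 in knockout L mice, against 1007 and 943 in controls. All knockouts lay above both controls. The log2 difference was 0.15 ± 0.06 (limma adjusted p = 0.225), and its second probe set had 0.07, with 6 of 8 knockouts above both controls. The partner core protein Uqcrc1 had 0.07. Among the catalytic subunits, Cyc1 (cytochrome c1) had -0.04 and Uqcrfs1, the Rieske iron-sulfur protein, 0.13. The small subunits Uqcrb and Uqcrh had -0.02 and 0.001. Cycs, the mobile cytochrome c itself, had 2490 to 3400 in knockouts and 2584 and 2729 in controls, with a log2 difference of 0.11, and another of its probe sets had 0.22 with all 8 knockouts above both controls.

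ATP synthase had 9 lower and 8 higher estimates among 17 genes, with a median of -0.02. The catalytic head subunits Atp5a1 and Atp5b had log2 differences of 0.11 (95% interval -0.04 to 0.26) and 0.10 (-0.05 to 0.26). The stalk subunits Atp5c1, Atp5d and Atp5e had -0.03, -0.04 and -0.07. The genes Atp5g1, Atp5g2 and Atp5g3 encode the same mature subunit of the proton-driven c ring and differ in their import sequences. Of these, Atp5g1 had 1437, 1365, 1301, 1284 and 1163 in knockout H mice and 1351, 1412 and 1395 in knockout L mice, against 1111 and 1095 in controls. All knockouts lay above both controls, and the log2 difference was 0.19 ± 0.08 (limma adjusted p = 0.215), while Atp5g2 had 0.06 and Atp5g3 -0.02.

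Atp5j, of the peripheral stalk that holds the head still, had 1189 to 1496 in knockouts (median 1310) and 1072 and 1176 in controls, a narrow separation, with a log2 difference of 0.20 ± 0.10 (limma adjusted p = 0.320). The other peripheral stalk subunits Atp5h, Atp5o and Atp5pb had -0.12, -0.08 and 0.04. Atp5j2, a subunit of the membrane part, was lower in all 8 knockouts, with 2388 to 2814 and a median of 2698 in knockouts and 2870 and 2895 in controls, but its estimate was -0.13 ± 0.08 (adjusted p = 0.446).

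More than 1 probe set was present for 52 of the 92 genes. For 47 genes another probe set lay above the filter level, and in 35 of the 47 its difference between knockouts and controls had the same sign as that of the probe set used. The gap between the 2 differences had a median of 0.0814 and a maximum of 0.3283 on the log2 scale, which is as large as most of the differences themselves.

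The genes varied little over the 10 arrays. The SD of the log2 values ran from 0.0404 (Ndufs3) to 0.4454 (Ndufa4), with a median of 0.1082, and the highest array exceeded the lowest by 1.09-fold to 2.78-fold, with a median of 1.27-fold. Ndufa4, Cox7a1, Cox6b2, Ndufaf4 and Ndufa12 varied most. Above 9 on the log2 scale the median SD was 0.1041 for the 69 genes of this group, against 0.1705 for the 1048 other genes. Between 6 and 8 it was 0.1444 for 8 genes, against 0.1666 for 5265 others, and below 6 it was 0.1155 for 7 genes, against 0.1103 for 5914 others. These are descriptions with no test, since the SD holds the group differences as well as the spread within groups.

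**Figure D4:**
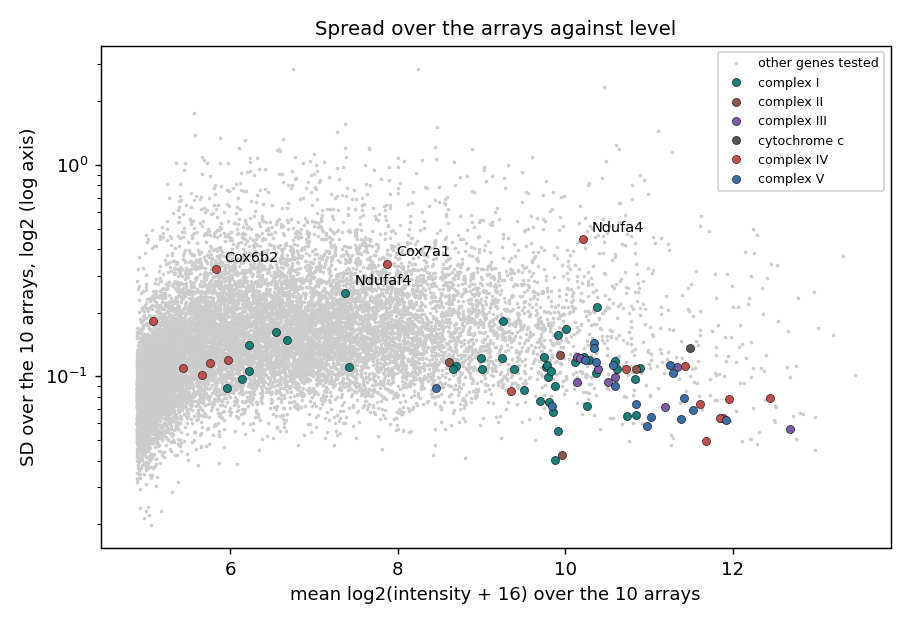
SD over the 10 arrays (vertical axis, log2 units on a log axis) against the mean log2(intensity + 16) (horizontal axis) for each gene tested, with the oxidative phosphorylation genes coloured by complex and other genes in grey. Most coloured points at high levels lie in the lower part of the grey cloud, while Ndufa4, Cox7a1 and Cox6b2 lie above it or within its upper part.

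Nuclear respiratory factor NRF1, the ETS factor GABPA (also called NRF2) and YY1 are known to bind promoters of many respiratory genes. The letters GCGCA followed directly by TGCGC (NRF1), CCGGAAG (ETS family) and AAGATGGCG (YY1) were therefore counted on both strands in RefSeq promoters of mouse build GRCm38.p6, each from 250 bases before to 50 bases after a gene's start. CCGGAAG and AAGATGGCG share the letters AAG and can overlap. A promoter was listed for 75 of the 92 genes. NRF1's letters stood in 6 of the 75 (8.0%), against 1.95% of 10872 other genes tested on the arrays and 1.07% of all 27025 genes listed. The ETS letters stood in 19 (25.33%, against 17.76% and 9.93%), and YY1's in 7 (9.33%, against 3.09% and 1.64%). The 6 with NRF1's letters were Atp5g2, Atp5k, Cox6a1, Ndufaf4, Ndufaf5 and Uqcrc1. Median GC content was 59.0% for these genes, 60.0% for the other genes tested and 52.7% for all promoters.

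The 200 bases before the start are shown for the 4 genes with the smallest p between knockouts and controls and for Cox6a1, a widely expressed complex IV subunit, so that the promoters can be compared by eye. Capitals mark the letters of the 3 motifs. Cox6b2 (chr7:4753095-4753294, minus strand) and Cox7a1 (chr7:30183971-30184170, plus strand) held none in this window. Ndufb7 (chr8:83566558-83566757, plus strand) and Sdhd (chr9:50603850-50604049, minus strand) held the ETS letters, and Cox6a1 (chr5:115348959-115349158, minus strand) held NRF1's and the ETS letters. CTTCCGG is the ETS motif read from the opposite strand.
Cox6b2: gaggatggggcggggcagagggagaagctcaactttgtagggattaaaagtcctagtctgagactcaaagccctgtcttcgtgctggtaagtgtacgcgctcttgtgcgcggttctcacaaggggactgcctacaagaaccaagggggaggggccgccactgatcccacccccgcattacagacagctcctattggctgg
Cox7a1: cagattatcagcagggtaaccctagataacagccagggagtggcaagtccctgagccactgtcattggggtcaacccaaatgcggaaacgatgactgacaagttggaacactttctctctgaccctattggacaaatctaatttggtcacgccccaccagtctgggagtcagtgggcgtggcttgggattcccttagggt
Ndufb7: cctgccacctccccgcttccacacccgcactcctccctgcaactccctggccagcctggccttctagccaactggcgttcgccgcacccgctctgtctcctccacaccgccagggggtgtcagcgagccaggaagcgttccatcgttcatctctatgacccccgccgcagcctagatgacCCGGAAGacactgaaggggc
Sdhd: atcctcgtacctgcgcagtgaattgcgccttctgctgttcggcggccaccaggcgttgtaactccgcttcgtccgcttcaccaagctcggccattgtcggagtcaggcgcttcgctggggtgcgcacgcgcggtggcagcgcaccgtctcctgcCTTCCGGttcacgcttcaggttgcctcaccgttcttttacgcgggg
Cox6a1: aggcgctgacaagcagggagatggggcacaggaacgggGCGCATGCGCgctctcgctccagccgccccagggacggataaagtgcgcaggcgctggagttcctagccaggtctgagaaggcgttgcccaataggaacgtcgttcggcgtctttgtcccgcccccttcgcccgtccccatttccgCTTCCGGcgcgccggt

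The ETS letters began 20 bases before the start in Ndufb7, 46 in Sdhd and 16 in Cox6a1, where NRF1's began 162 bases before it. None of the 4 tissue-restricted forms with a listed promoter held any of the 3 motifs, against 24 of 64 subunits of the general kind (37.5%) and 21.62% of the other genes tested on the arrays. With 4 promoters nothing particular to these forms can be read from this. A match of letters is a description of the window and shows no binding. Expression of the factors was measured too. Nrf1 averaged 56.3 ± 6.1 in knockouts and 57.6 ± 1.9 in controls, with a log2 difference of -0.12 (limma adjusted p = 0.528). Gabpa averaged 99.99 ± 13.2 in knockouts and 86.7 ± 8.6 in controls, with 0.16 (adjusted p = 0.643). Yy1 averaged 416 ± 33.8 in knockouts and 389 ± 30.2 in controls, with 0.01 (adjusted p = 0.967).

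Other mitochondrial lists were read beside the subunits. Over 8 lists with 120 genes tested, 5 fell (4.17%, against 2.79% of all genes tested) and 3 rose (2.5%, against 1.52%) in knockouts, shares near those of all genes. The tricarboxylic acid cycle and pyruvate dehydrogenase, which feed NADH to complex I, held 4 of the 8 calls among 17 genes (2 lower and 2 higher), where 4.31% of all genes were called. Ogdh, the first enzyme of the oxoglutarate dehydrogenase complex, fell to 654 ± 41.0 in knockouts, against 1014 ± 21.6 in controls (log2 difference -0.54 ± 0.08, limma adjusted p = 0.0124). Dlst, the succinyl-transferring enzyme of the same complex, fell to 505 ± 42.1 in knockouts, against 726 ± 9.4 in controls (-0.40, adjusted p = 0.0305). Dld, the dehydrogenase that this complex shares with pyruvate dehydrogenase, rose to 355 ± 23.5 in knockouts, against 265 ± 18.6 in controls (0.40, adjusted p = 0.0413). Dlat, the acetyl-transferring enzyme of pyruvate dehydrogenase, rose to 137 ± 7.5 in knockouts, against 104 ± 15.0 in controls (0.39, adjusted p = 0.0475). In each of the 4 genes, all 8 knockouts lay on one side of both controls.

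Enzymes that pass electrons to the chain beside complexes I and II held 2 further calls among 10 genes, both lower (2.79% of all genes). Chdh, choline dehydrogenase, fell to 545 ± 41.9 in knockouts, against 685 ± 42.0 in controls (log2 difference -0.45, limma adjusted p = 0.0162), and Prodh, proline dehydrogenase, to 151 ± 20.2 in knockouts, against 254 ± 3.0 in controls (-0.81, adjusted p = 0.0186). On the list of genes that lower or remodel respiration in hypoxia, 2 of 7 were called (4.31% of all genes), 1 in each direction. Pdk2, a kinase that inhibits pyruvate dehydrogenase, fell to 56.9 ± 10.97 in knockouts, against 132 ± 15.9 in controls (-1.10, adjusted p = 0.0174). Hif1a, the oxygen-regulated transcription factor subunit, rose to 439 ± 116 in knockouts, against 217 ± 55.0 in controls (1.24, adjusted p = 0.0331). In all 4 genes the knockouts lay on one side of both controls.

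These 8 calls rest on few arrays. All 8 were lost without control replicate 1 (adjusted p from 0.161 to 0.3855) and without control replicate 2 (0.05545 to 0.184). Without knockout H replicate 4, every call but that of Ogdh was lost (0.0505 to 0.119), and without knockout L replicate 3 those of Dlst, Dld, Dlat, Pdk2 and Hif1a (0.0529 to 0.115). Without knockout H replicate 5, Dlst, Dld, Dlat and Hif1a missed the threshold (0.0712 to 0.1665). Without knockout L replicate 1 or 2, Dld, Dlat and Hif1a did (0.0504 to 0.0741), and without knockout H replicate 3 Dlat (0.0616). The direction was kept in each of these fits.

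No gene passed the threshold on the remaining 5 lists. Of 18 regulators of mitochondrial gene expression, 14 had a higher and 4 a lower estimate, with a median of 0.0989. Tfam, which packages and transcribes mitochondrial DNA, averaged 174 ± 13.8 in knockouts and 120 ± 11.3 in controls (a log2 difference of 0.46, limma adjusted p = 0.0517). Tfb2m, the mitochondrial transcription initiation factor, averaged 211 ± 21.9 in knockouts and 147 ± 2.7 in controls (0.34, adjusted p = 0.0640). Ppargc1a, the coactivator PGC-1 alpha, averaged 137 ± 48.1 in knockouts and 142 ± 4.1 in controls, with 4 knockouts below and 4 above both controls. Among 33 assembly factors outside the Nduf prefix, Tmem70, needed for ATP synthase and complex I, had 0.28 (adjusted p = 0.0525), and Cox18, an inserter of a complex IV subunit, 0.78 (adjusted p = 0.0576). Coq4 and Coq3, both of ubiquinone synthesis (12 genes), had -0.45 and 0.30. Timm44 and Tomm40, both of protein import (16 genes), had -0.26 and 0.30, and among 7 carriers and porins Slc25a4, the muscle form of the ATP/ADP carrier, had -0.50 (adjusted p = 0.225) and the porin Vdac3 0.12.

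**Figure D5:**
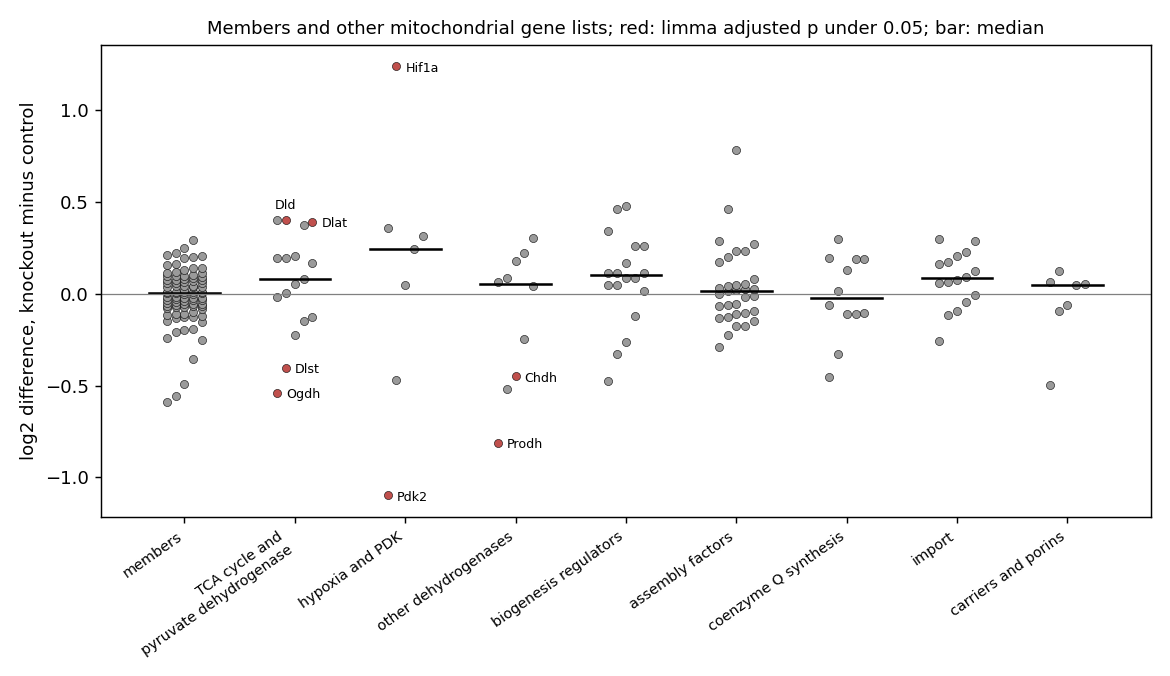
Log2 difference between knockout and control mice (vertical axis) for the 89 oxidative phosphorylation genes and for each gene tested on 8 other mitochondrial lists, red where the limma adjusted p is under 0.05, bars at the medians. The 89 lie between -0.59 and 0.29 with no red point, and the 8 red points are Ogdh, Dlst, Dld, Dlat, Pdk2, Hif1a, Chdh and Prodh.

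Knockout H mice were set against knockout L mice in a fit of all 10 arrays. None of the 89 genes was called lower or higher, against 0% of all genes tested in either direction. At an unadjusted p under 0.05 there were 2 lower (2.25%, against 1.13% of all genes) and none higher (1.09% of all genes). The 2 were Cox6b2, with a log2 difference of -0.28 ± 0.12, and Ndufa2, a small accessory subunit of complex I, with -0.17 ± 0.07 (limma adjusted p = 1 for both). Cox6b2 had 28.6 to 35.6 in knockout H mice, against 34.6, 47.1 and 48.9 in knockout L mice, so that the classes overlapped at 1 array. Of the 89 estimates 59 were lower (66.3%) and 30 higher (33.7%) in H, against 50% each over all genes, with a median of -0.0248 beside 0 over all genes. The median was 0.0029 in the upper number range alone, -0.1131 in the lower range alone, where knockout L is 1 mouse, and 0.0078 without that mouse, knockout L replicate 3.

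All 5 knockout H mice lay below all 3 knockout L mice in 3 genes (3.37%, against 0.652% of all genes tested). These were Ndufa8, Ndufc2 and Atp5o, with log2 differences of -0.06, -0.08 and -0.02 and unadjusted limma p-values of 0.404, 0.364 and 0.7096. Ndufa8, an accessory subunit, had 780.5 to 899 in knockout H mice, against 909.96, 916 and 951 in knockout L mice. In Atp5o the highest H mouse read 1834.41 and the lowest L mouse 1835.32. The second probe set of Atp5o overlapped, with 348 to 512 in H and 459 to 514 in L. That of Ndufc2 overlapped as well, with 783 to 873 in H and 838 to 864 in L. None of the 89 had all H above all L (0.901% of all genes). The 95% interval of the difference stayed within 1.5-fold for 87 of 89 genes (97.8%, against 90.9%), and no estimate exceeded 1.25-fold (2.81% of all genes).

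The number range may stand for a batch, though the labels do not say so. The probe set for the 3-prime end of 18S ribosomal RNA, an array control, read 199 to 367 in the upper range and 45.7 to 94.2 in the lower, without overlap. The ratio of 3-prime to 5-prime probe sets was 1.26 to 1.36 in the upper range and 1.17 to 1.26 in the lower for actin. For Gapdh it was 0.942 to 0.985 in the upper range and 0.872 to 1.11 in the lower. Among the 89 genes none was called lower (0.169% of all genes tested) or higher (0.132%). At an unadjusted p under 0.05, Cox8b (-0.30) and Cox5a (-0.21) were lower in the upper range, and Ndufb11 (0.21), Ndufb3 (0.17), Ndufs4 (0.17) and Uqcrc2 (0.15) were higher (2 lower, 2.25% against 4.83%, and 4 higher, 4.49% against 5.39%). The 5 upper knockouts all lay below the 3 lower knockouts in Uqcrc1, Cox5a, Cox6a1, Atp5a1 and Atp5b (5.62%, against 5.78%), and all above them in Ndufa9, Ndufb11 and Ndufb3 (3.37%, against 5.24%). Cox5a read 2388 to 2725 in the upper knockouts, against 2864, 3056 and 3065 in the lower ones. Its second probe set overlapped, with 2506 to 2663 in the upper knockouts and 2266, 2526 and 2778 in the lower ones. The second probe sets of Atp5a1, Cox6a1 and Ndufb11 overlapped between the ranges as well.

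In complex I, 30 of 41 genes had a higher estimate in the upper range, with a median of 0.0536, while in complex IV 13 of 17 had a lower one, with a median of -0.0604. The 41 include the 8 assembly factors, all of them higher. Among the 33 complex I subunits 22 were higher and 11 lower, with a median of 0.0395. Over all genes tested 51.4% were lower and 48.6% higher. Complex II had 2 lower and 2 higher estimates, complex III 5 lower and 4 higher, and complex V 8 lower and 9 higher. Over all 89 there were 40 lower (44.9%) and 49 higher (55.1%). The part of the 18S and 3-prime to 5-prime values in this was not tested. Between the letters M and F, none of the 89 was called lower (0.00733% of all genes tested) or higher (0.0147%). At an unadjusted p under 0.05, Ndufb10 (0.21) and Atp5k (0.18) were higher in M (2.25%, against 2.18% of all genes), and the assembly factor Ndufaf1 (-0.26) was lower (1.12%, against 2.65%). The median was -0.0198, beside -0.0078 over all genes.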

How the data were processed

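The data were 10 arrays with 45101 probe sets, of mouse total RNA. The values deposited by the authors are intensities on a linear scale, 1 per probe set on each array. How they were summarized and normalized is not given in the sources used here. The array medians lay between 18.4 and 18.9, so the arrays already shared a like distribution and were not normalized again. Arrays have no read depth, and their number, above all the 2 controls, limits the precision.

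Probe sets with 1 gene symbol (34945) were named from GEO's platform annotation, with symbols updated through the RefSeq gene list of GRCm38.p6. Probe sets with several symbols (932), with none (9160) and array controls (64) named no gene, and 10 of those with several symbols held a symbol of the chosen kind. For each gene the probe set with the highest mean was used. Values were taken as log2(intensity + 16), so differences of dim genes are understated. Genes whose mean did not exceed the 25th percentile (log2 value 4.89, intensity 13.6) were left out.

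The tests used lmFit and eBayes of limma 3.58.1 under R 4.3.3. Number range and letter were covariates, and p-values were adjusted over 13644 genes (Benjamini-Hochberg). Knockout versus control used all 10 arrays in 2 groups, and the other comparisons came from 1 fit in 3 groups. Log2 differences and their SE come from the fit, group means ± SD are of plain intensities, and folds are adjusted ones on the log2(intensity + 16) scale. The fit was tested on simulated data. The file was read with the package data.table, version 1.17.8, under R, and matplotlib 3.10.9 (Python 3.11.15) drew the plots.

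Named were Cftr, the 3 highest and the 3 with the smallest p of each complex, tissue forms and their partners, assembly factors, genes whose knockouts lay on 1 side of both controls, called genes of the mitochondrial lists (otherwise the 2 with the smallest p), and tissue markers. Further subunits were named after their values were seen. The genes, lists, motifs and tests were chosen with earlier results of these data known. Alternatives changed the pseudocount, filter, probe set rule, normalization, covariates, variance estimate and arrays used.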

Additional observations from a re-analysis of the deposited data

Results flagged for a closer look

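In groups of 5 or 8 knockouts, 33 genes and mean values were searched for an array whose gap to its nearest neighbour took up most of the group's range (Dixon's criterion). Of 66 groups 8 met it. A single group meets it by chance about 1 in 20 times, but the 66 cannot be held against that share. Each H group lies within the group of all knockouts, and the mean values share genes. The values were not adjusted for number range, and knockout H replicates 4 and 5 are the only H mice of the lower range. Knockout H replicate 5 read lowest among the H mice for Ndufaf8 (340.2, with the nearest at 394.1) and for Uqcrc2 (1044, nearest 1136). Knockout H replicate 4 read lowest for Atp5j2, with 2388, both among the H mice (nearest 2686) and among all knockouts (nearest 2665). It also read lowest for Ndufb10 among the H mice (701.6, nearest 823.2) and for Atp5k among all knockouts (1017, nearest 1145). Knockout H replicate 3 read highest among the H mice for Ndufs1 (565.9, nearest 491.1), and knockout L replicate 3 highest among all knockouts for Cox8b (27.36, nearest 18.73). None of these genes passed the limma threshold in any of the 4 comparisons.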

How the results depend on the processing

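No result changed direction past its threshold. Of the 89 oxidative phosphorylation genes none was called in knockouts against controls with the settings of the report. With no covariates 4 were called (Atp5g1, Cox6b2, Cox7a1 and Ndufaf7), without the number range term 2 (Cox6b2 and Cox7a1), and in the lower number range alone 2 (Cox7a1 and Ndufa4). Leaving out each array in turn gave 0 to 1, the 1 being Cox7a1 without knockout H replicate 2, and in the other 19 of 23 alternatives, among them the fit without knockout H replicates 2 and 5, none was called. Of 14 members followed in each alternative, 6 moved by over 1.5 times without a single array: Cox6b2 (-0.94 and -0.30), Ndufb5 (0.33 and 0.11) and Atp5j (0.32 and 0.10) without control replicate 1 and 2, Ndufb7 (-0.22) without control replicate 2, Ndufaf8 (-0.13) without knockout H replicate 5 and Atp5j2 (-0.06) without knockout H replicate 4. The members' median difference stayed between -0.0308 and 0.0353. Over all genes 588 were called, against 1366 with no covariates, 1222 without the number range term and 1014 in the lower range alone. Without single arrays the count ran from 0 (control replicate 1) and 57 (control replicate 2) to 813 (knockout H replicate 2), with 121, 191 and 263 without knockout H replicate 4, L replicate 3 and H replicate 5. The median of H minus L was -0.1131 in the lower number range alone, and over single arrays left out it ran from -0.047 to 0.0078. The median of the number range ran from -0.0213 to 0.049 over single arrays left out, the lowest without knockout H replicate 5. The median of M minus F ran from -0.0582 to 0.0231 (the highest without knockout H replicate 5) and was 0.0232 without knockout H replicates 2 and 5. For these comparisons the count of all genes called ran from 0 to 150 for the number range (41 in the report), 2 to 5 for the letter (3) and 0 to 1 for H against L (0). The cause of these changes was not tested. No paired analysis was possible because the labels give the samples no shared replicate numbers. Limits lie in the 2 controls, both in the lower number range, in dim genes such as Cox6b2, whose differences are understated, and in the bulk tissue.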
